A study of Mus musculus with 36 samples.

Results

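Clu, Ly6a, Il1rn, Msln and Spp1 are 5 genes used to recognise a fetal-like or regenerative state of the intestinal epithelium, and they were followed here across all conditions of an organoid experiment. They were chosen as a list of mouse symbols and matched to the Ensembl identifiers of the count files, where all 5 were found among 52636 genes listed. Of the 5, 4 were detected, with mean levels over the 36 libraries between 154 and 1509 CPM (counts scaled to a common library size by the TMM method of edgeR). Spp1 had a mean of 0.272 CPM and was not detected by the limit set for this list, a mean of 0.5 CPM. The organoids were grown in Matrigel from jejunal crypts of 6 C57BL/6 mice, numbered 1 to 6 as origins, and the labels do not say which library came from which mouse. The age of these mice is not given in the sources used here. Complete media is IntestiCult, the standard culture medium. QCM and SCM are media conditioned by mouse embryonic fibroblasts made quiescent by serum withdrawal or senescent by X-rays or doxorubicin, concentrated and mixed with IntestiCult. Wnt5a, a ligand of noncanonical Wnt signaling, was added to complete media. Every culture also received either control IgG or an antibody against Ptk7, so that there were 6 conditions of 6 libraries each. Ptk7 is a receptor, and the paper reports that senescent fibroblasts shed its N-terminal domain, which the antibody targets, into SCM. They were complete media, QCM, SCM and Wnt5a with IgG, and SCM and Wnt5a with anti-Ptk7. Complete media with anti-Ptk7 was not analysed here, and the antibody could therefore be compared with IgG only in SCM and in Wnt5a.

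In the adult intestine, crypt-base stem cells renew the epithelium. After injury, cells near the crypt can switch on a programme that resembles the fetal epithelium, with high Ly6a (also called Sca-1), annexins and other genes linked to the transcriptional co-activator YAP. Rare Clu-positive revival stem cells have been described in the same setting. Il1rn and Msln are found among the genes raised in such fetal-like cells, and Spp1 encodes a secreted matrix protein often raised in injured tissue.

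A library held between 9581589 and 21029769 counts, with a median of 13490071. The 4 detected genes had between 238 and 78062 counts in a library. All 7 epithelial markers examined (such as Epcam, Cdh1 and Vil1) were above 0.5 CPM in every condition. Their summed level lay between 5892 and 23209 CPM. The fibroblast markers Col3a1, Dcn and Thy1 had no count in any library, and all 8 fibroblast markers together reached at most 7.36 CPM. Msln is also a known marker of mesothelium. Of 5 other mesothelial markers Wt1 and Gpm6a had no count in any library, while Upk1b, Upk3b and Lrrn4 did. Their summed level was 2.78 to 4.90 CPM in complete media, 6.18 to 17.6 CPM in SCM + IgG and 9.48 to 24.5 CPM in Wnt5a + IgG, most of it Upk1b. It was 4.67 to 16.8 CPM with anti-Ptk7 in SCM and 6.93 to 27.3 CPM with anti-Ptk7 in Wnt5a. Its part in the change of Msln was not tested. In these bulk libraries, fewer cells of a type and less RNA per cell cannot be told apart.

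Clu encodes clusterin, a secreted chaperone. The gene (ENSMUSG00000022037) lies on the plus strand of chromosome 14, from 65968483 to 65981547 in GRCm38. Its level climbed through the conditions, from complete media through QCM and SCM to Wnt5a. In complete media + IgG the lowest library had 19.8 CPM, the median was 41.9 and the highest library had 101. In QCM + IgG the lowest, median and highest values were 96.1, 169 and 310 CPM, so that 1 complete media library reached into the QCM range. In SCM + IgG they were 604, 1093 and 1979 CPM, and in Wnt5a + IgG 2260.3, 2837 and 7382 CPM. Every SCM library was above every QCM library, and every Wnt5a + IgG library was above every SCM + IgG library. The mean rose 23.7-fold from complete media (51.0 ± 29.8 CPM, SD, n = 6) to SCM (1211 ± 563) and 74.0-fold to Wnt5a (3775 ± 2019).

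**Figure D1:**
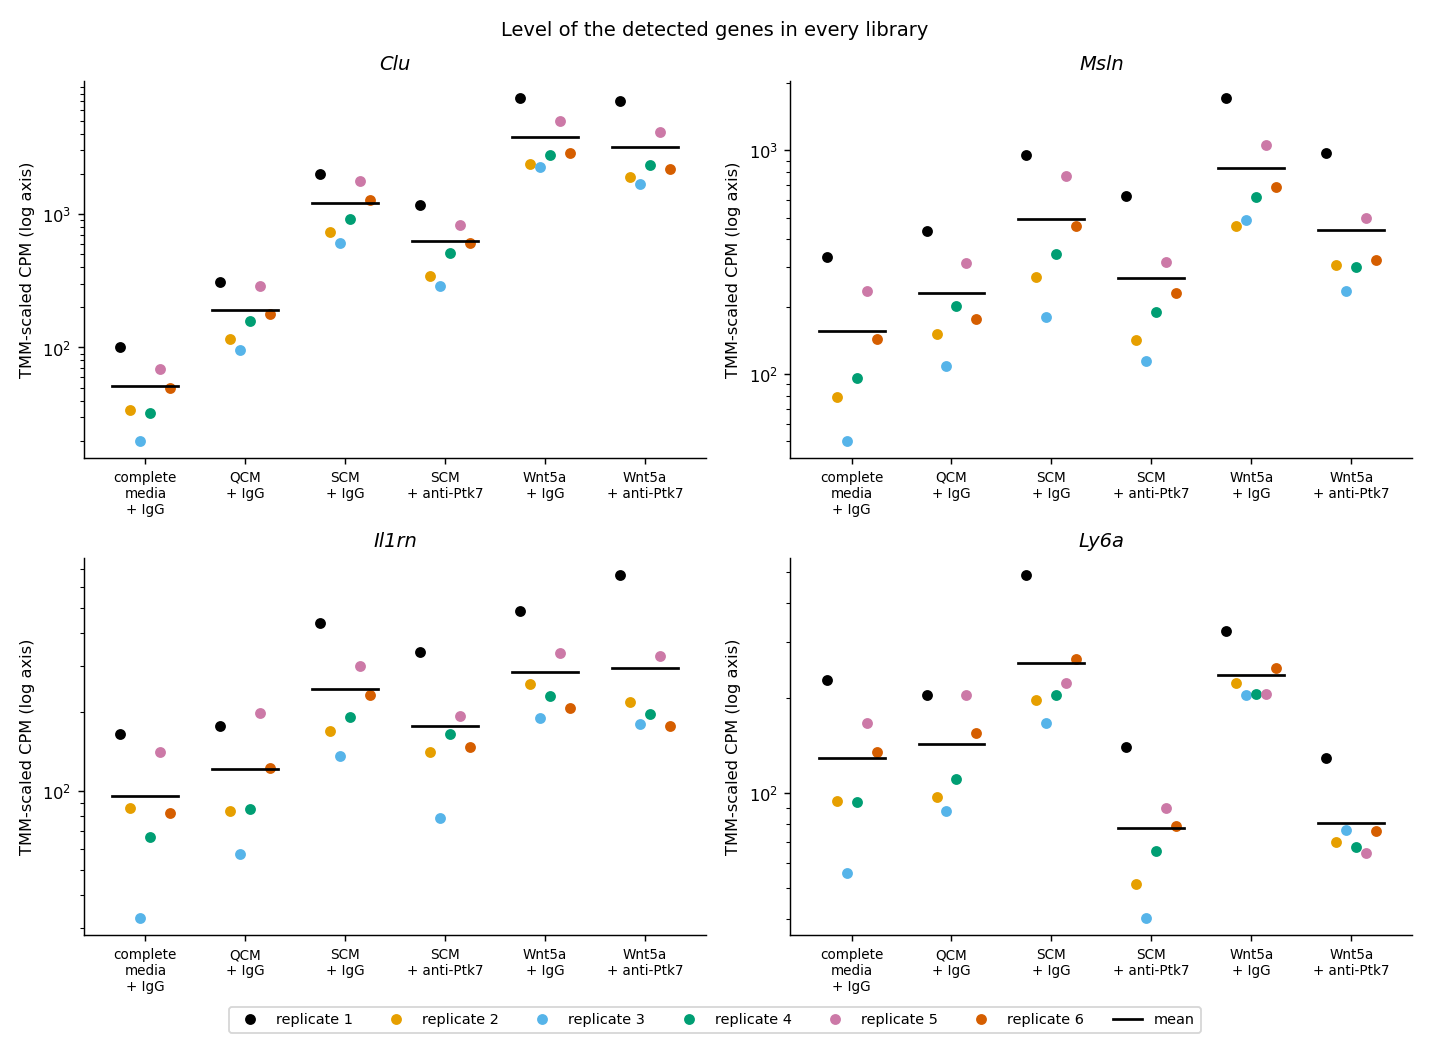
Level of the 4 detected genes in each of 36 libraries, as TMM-scaled CPM on a log axis, by condition; points are libraries coloured by replicate number and the horizontal bar is the mean of 6 libraries. Clu rises from a mean of 51.0 CPM in complete media to 3775 in Wnt5a, while Ly6a falls with anti-Ptk7 to means of 77.6 and 80.7 CPM.

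Fits across all 15497 genes that passed the filter on low counts placed these differences against the spread between libraries (edgeR quasi-likelihood test, Benjamini-Hochberg adjustment over all genes, a gene being called where the fold change exceeded 1.5 and the adjusted p was below 0.05). In QCM against complete media Clu rose by 1.91 ± 0.42 on the log2 scale (± standard error throughout, adjusted p = 0.0182), while 0.374% of all genes tested were called. In SCM against complete media it rose by 4.57 ± 0.46 (adjusted p = 1.41e-08), and in Wnt5a against complete media by 6.21 ± 0.50 (adjusted p = 6.21e-11). Clu was also higher in SCM than in QCM, by 2.66 ± 0.42 (adjusted p = 0.000616), and higher in Wnt5a than in SCM, by 1.64 ± 0.41 (adjusted p = 0.0273). The first and the last of these 5 calls are the weakest. The QCM call was lost without complete media replicate 2, 3, 4 or 6 or without QCM replicate 1 or 5, where the log2 fold change was between 1.72 and 1.90. The Wnt5a against SCM call was lost without SCM replicate 2, 4 or 6 or without Wnt5a replicate 1 or 5, with values between 1.34 and 1.66.

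Msln encodes mesothelin, a glycoprotein anchored in the outer cell membrane. The gene (ENSMUSG00000063011) lies on the minus strand of chromosome 17, from 25748613 to 25754378. In complete media + IgG the lowest, median and highest libraries had 50.1, 120 and 334 CPM, and in QCM + IgG 108, 189 and 435 CPM. In SCM + IgG they had 179.9, 401 and 950.1 CPM, and in Wnt5a + IgG 458, 652 and 1710.2 CPM. The Wnt5a libraries did not overlap with those of complete media, whereas the SCM and QCM libraries did. Msln rose in SCM by 1.67 ± 0.47 on the log2 scale (adjusted p = 0.0163) and in Wnt5a by 2.42 ± 0.48 (adjusted p = 0.000366, edgeR). The SCM call was lost without complete media replicate 3, with a log2 fold change of 1.48, or without SCM replicate 1, with 1.37. The differences of QCM from complete media (0.57 ± 0.46), of SCM from QCM (1.10 ± 0.46) and of Wnt5a from SCM (0.76 ± 0.46) were not called, but all 3 were with a replicate block in the fit.

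Il1rn encodes the interleukin-1 receptor antagonist, a secreted protein that occupies the interleukin-1 receptor without activating it. The gene (ENSMUSG00000026981) lies on the plus strand of chromosome 2, from 24336853 to 24351494. In complete media + IgG the lowest, median and highest libraries had 32.6, 84.1 and 165 CPM, and in QCM + IgG 57.4, 104 and 198 CPM. In SCM + IgG they had 136, 211 and 437 CPM, and in Wnt5a + IgG 189.5, 243 and 483 CPM. Only the Wnt5a range was clear of the complete media range. Il1rn rose in SCM by 1.35 ± 0.38 (adjusted p = 0.0152) and in Wnt5a by 1.57 ± 0.38 (adjusted p = 0.00261, edgeR, log2 scale). Without SCM replicate 1 the SCM call was lost, at 1.10. It was not called in QCM against complete media (0.34 ± 0.37), in SCM against QCM (1.02 ± 0.37) or in Wnt5a against SCM (0.22 ± 0.37), and with a replicate block SCM against QCM was called.

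Il1rn has 3 start sites in the RefSeq promoter table of GRCm38.p6, an upstream one and a pair further downstream, and of the detected genes it is the one the table holds. Both strands of the 250 bases before each start were searched for GGAATG, the core recognised by the YAP partners of the TEAD family, and for TGANTCA, the AP-1 site. The first is present in 12.6% and the second in 6.75% of the 32851 windows of this length in the table. The window before the upstream start at 24336860 held TGAGTCA, and the window before the last start at 24345371 held GGAATG. The windows of Spp1, which was not detected, were searched as well and held neither. A match of letters is a description and not evidence of binding. The upstream sequence is shown up to the first base of the annotated gene (chr2:24336610-24336852, plus strand), followed by 30 bases around the second match (chr2:24345335-24345364, plus strand), with the matched letters in capitals.
Il1rn upstream start: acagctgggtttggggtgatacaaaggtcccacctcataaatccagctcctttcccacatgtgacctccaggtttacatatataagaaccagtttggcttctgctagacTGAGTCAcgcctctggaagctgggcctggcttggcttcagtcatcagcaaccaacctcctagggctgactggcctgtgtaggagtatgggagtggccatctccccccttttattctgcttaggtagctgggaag
Il1rn downstream start: tgacagtggaacGGAATGacagcagcacag

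Ly6a encodes a small glycoprotein of the Ly6 family anchored in the cell membrane. The gene (ENSMUSG00000075602) lies on the minus strand of chromosome 15, from 74994877 to 74998031. It was the member with the smallest rise. The lowest, median and highest libraries had 56.1, 115 and 228 CPM in complete media + IgG and 88.0, 133 and 205 CPM in QCM + IgG, which covered much the same range. In SCM + IgG they had 167, 214 and 488 CPM, and in Wnt5a + IgG 205, 214 and 326 CPM. Both sets overlapped with complete media, whose highest library stood above the SCM and the Wnt5a medians. Ly6a rose in SCM by 1.00 ± 0.29 (adjusted p = 0.0206) and in Wnt5a by 0.87 ± 0.29 (adjusted p = 0.0281, edgeR, log2 scale), and 0.15 ± 0.29 in QCM was not called. The SCM call was lost without complete media replicate 2, 3 or 4 or without SCM replicate 1, with values between 0.71 and 0.92. The Wnt5a call was lost without complete media replicate 2, 3 or 4 or without Wnt5a replicate 1, with values between 0.71 and 0.78. SCM and QCM (0.85 ± 0.29) and Wnt5a and SCM (−0.13 ± 0.29) were not called, the first of which was called with a replicate block.

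Counted over the list, 1 of 5 genes was called higher in QCM against complete media, 4 in SCM, 4 in Wnt5a, 1 in SCM against QCM and 1 in Wnt5a against SCM, and none was called lower. Of all genes tested, 6.08% were called in SCM, 10.2% in Wnt5a, 0.903% in SCM against QCM and 0.69% in Wnt5a against SCM. The single gene called in QCM, in SCM against QCM and in Wnt5a against SCM was Clu. The comparisons with complete media share its 6 libraries. Tested by glmTreat against a fold change of 1.5 rather than against no change, Clu kept its calls in SCM, in Wnt5a and in SCM against QCM, and Msln and Il1rn kept theirs in Wnt5a. The other 6 of the 11 calls were lost, and the share of all genes called by glmTreat was not counted.

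**Figure D2:**
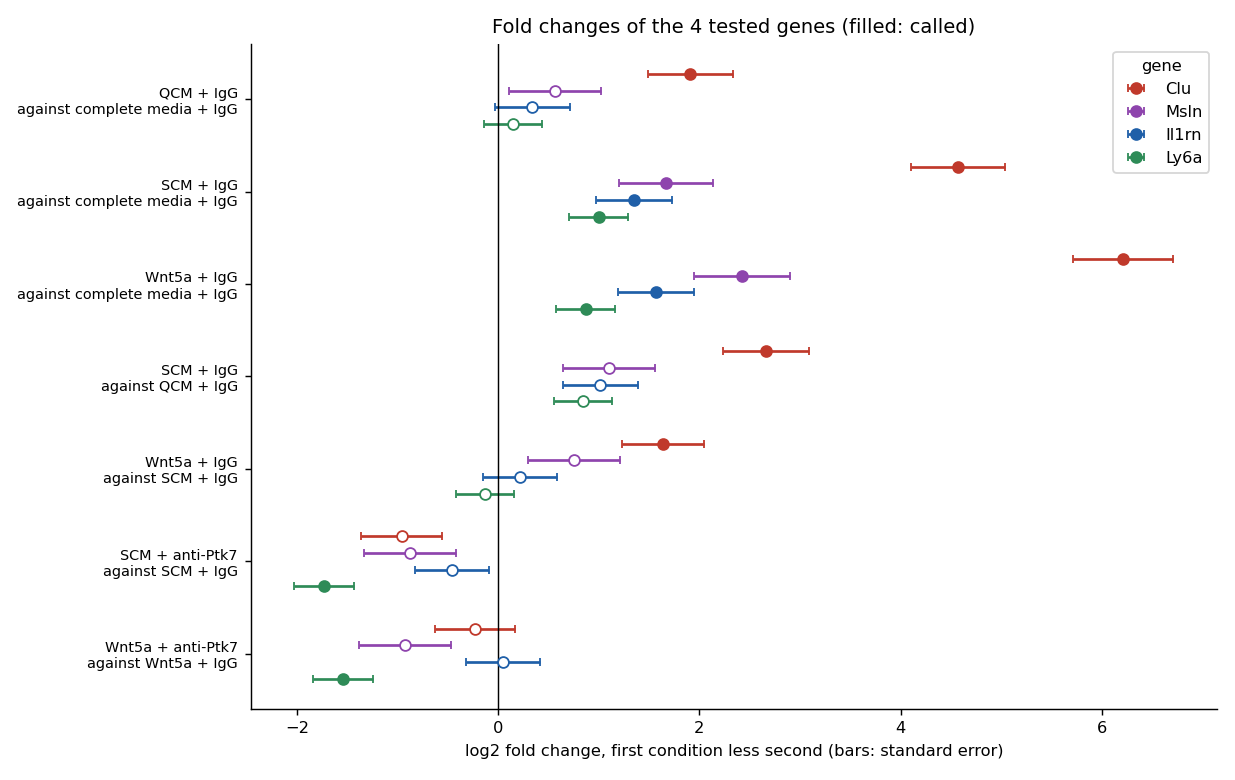
Log2 fold change (horizontal axis, first condition less second) of Clu, Msln, Il1rn and Ly6a in 7 comparisons; bars are standard errors and filled points were called. Clu is called in each comparison of media, up to 6.21 in Wnt5a, and Ly6a is the gene called with anti-Ptk7, at −1.73 in SCM and −1.55 in Wnt5a.

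Of the 4 detected genes, Ly6a was the one called lower with the antibody, and it was called in both media. In SCM + anti-Ptk7 the lowest, median and highest Ly6a levels were 40.2, 72.1 and 140.1 CPM, all below the lowest SCM + IgG library (167 CPM). In Wnt5a + anti-Ptk7 they were 64.8, 73.0 and 129 CPM, all below the lowest Wnt5a + IgG library (205 CPM). Ly6a fell 3.32-fold in SCM (log2 fold change −1.73 ± 0.30, adjusted p = 0.000967) and 2.92-fold in Wnt5a (−1.55 ± 0.30, adjusted p = 0.00263, edgeR). The share of all genes called with the antibody was 1.23% in SCM and 0.884% in Wnt5a. Leaving out any 1 library kept both calls, with log2 fold changes between −1.98 and −1.45 in SCM and between −1.73 and −1.43 in Wnt5a. The Wnt5a call, but not the SCM call, was lost in the test against a fold change of 1.5. Ly6a is also known from fibroblasts and endothelium, and the summed level of 8 fibroblast markers was 0 to 2.70 CPM in SCM + IgG and 2.26 to 7.36 CPM in SCM + anti-Ptk7. It was 0.211 to 3.09 CPM in Wnt5a + IgG and 1.98 to 4.74 CPM in Wnt5a + anti-Ptk7, so that the ranges overlapped in both media. Most of the sum was Pdgfrb, the 1 fibroblast marker tested, which was not called with the antibody in either medium. Its mean was 1.10 CPM in SCM + IgG and 4.10 CPM in SCM + anti-Ptk7 (log2 fold change 1.88). In Wnt5a + IgG it was 1.64 CPM and in Wnt5a + anti-Ptk7 2.73 CPM (log2 fold change 0.73). The part of such cells in the change of Ly6a was not tested. The 4 endothelial markers summed to at most 2.83 CPM in any library, and Kdr had no count.

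Clu, Msln and Il1rn were not called with the antibody in either medium in the fit of condition means. Between libraries of the same replicate number, all 3 were lower with the antibody in 6 of 6 numbers in SCM, and in Wnt5a Clu and Msln were lower in 6 and Il1rn in 5. How many of all genes were lower in this way was not counted. The 3 genes varied together within conditions, so these are not separate observations, and no label pairs libraries by number. With a replicate block in the fit, calls were made for Clu and Msln in SCM and Msln in Wnt5a. In SCM + anti-Ptk7 the lowest, median and highest Clu levels were 289, 558 and 1165 CPM, which overlapped with SCM + IgG. The log2 fold changes in SCM were −0.96 ± 0.40 for Clu (adjusted p = 0.202), −0.88 ± 0.46 for Msln (0.326) and −0.46 ± 0.37 for Il1rn (0.562, edgeR). In Wnt5a + anti-Ptk7 Clu still had 1684, 2258 and 7042 CPM, near the Wnt5a + IgG values, with a log2 fold change of −0.24 ± 0.40 (adjusted p = 0.854, edgeR). The Clu difference changed sign, to 0.07, without Wnt5a + IgG replicate 1. Msln differed there by −0.93 ± 0.46 (adjusted p = 0.337), with libraries between 236 and 978 CPM against 458 and 1710.2. Il1rn differed by 0.05 ± 0.37 (adjusted p = 0.972), and its sign turned in several alternatives. A p that misses the threshold does not show that these levels did not differ. The difference between the antibody effect in Wnt5a and that in SCM was itself tested and called for no gene (0% of 15497, with 602 genes at an unadjusted p under 0.05, edgeR). For the members it was 0.72 ± 0.56 for Clu, 0.51 ± 0.52 for Il1rn, 0.18 ± 0.41 for Ly6a and −0.05 ± 0.64 for Msln, each with an adjusted p of 0.999. With a replicate block that of Clu was called.

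The order of the 6 conditions differed between the genes, and neighbours in each order were compared by a two-sided exact permutation test on log2 CPM, 6 libraries against 6, adjusted over 20 pairs. The smallest p such a test can give is 0.00216 before adjustment. For Clu the order was Wnt5a with IgG, Wnt5a with anti-Ptk7, SCM with IgG, SCM with anti-Ptk7, QCM and complete media. SCM + anti-Ptk7 was above QCM by 1.67 on the log2 scale (adjusted permutation p = 0.0289), and QCM above complete media by 1.97 (adjusted permutation p = 0.0289). The step from Wnt5a + anti-Ptk7 down to SCM + IgG, of 1.34, had an adjusted permutation p of 0.0541. Il1rn had the same order as Clu by mean log2 CPM, but no neighbouring pair differed beyond its spread, and by mean CPM Wnt5a with anti-Ptk7 (293) stood above Wnt5a with IgG (283). Msln had SCM + IgG in the second place and Wnt5a + anti-Ptk7 in the third, and again no neighbours were told apart. For Ly6a the order was SCM + IgG, Wnt5a + IgG, QCM + IgG, complete media + IgG, Wnt5a + anti-Ptk7 and SCM + anti-Ptk7. Only the step from Wnt5a + IgG to QCM passed (0.78, adjusted permutation p = 0.0289), and with upper-quartile scaling none did. The step from complete media down to Wnt5a + anti-Ptk7 (0.58) had an adjusted permutation p of 0.325. Once replicate means were removed, 5 neighbouring pairs differed for Clu, 3 for Msln, 2 for Il1rn and 2 for Ly6a. Those means came from the same libraries and the permutation did not allow for them, so that test is not exact.

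**Figure D3:**
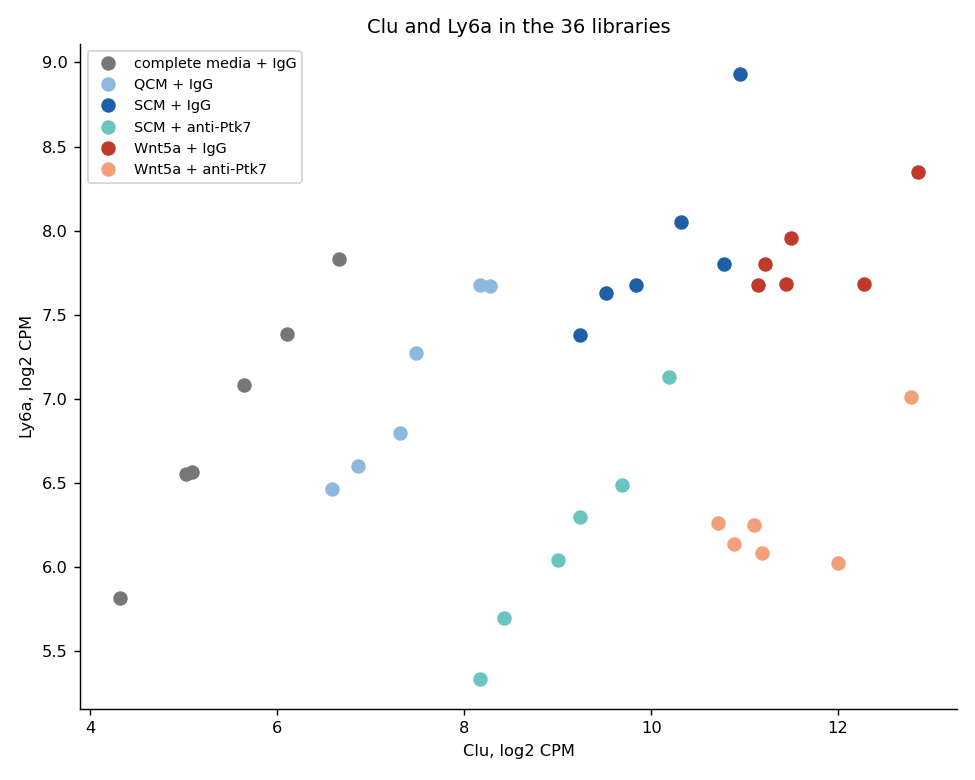
Log2 CPM of Clu (horizontal axis) against Ly6a (vertical axis) in 36 libraries, coloured by condition. Libraries of SCM and Wnt5a with anti-Ptk7 lie low on the Ly6a axis, at means of 6.16 and 6.29, while on the Clu axis they remain at means of 9.12 and 11.44, above complete media at 5.48.

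Set side by side, Ly6a with anti-Ptk7 averaged 77.6 ± 35.4 CPM in SCM and 80.7 ± 24.1 CPM in Wnt5a, against 129 ± 61.7 CPM in complete media (SD, n = 6). Clu with anti-Ptk7 averaged 623 ± 327 CPM in SCM and 3206 ± 2067 CPM in Wnt5a, against 51.0 ± 29.8 CPM in complete media. Per kilobase of coding sequence, Clu had the lowest mean level of the 4 genes in complete media (31.6 CPM per kb) and Ly6a the highest (321). In Wnt5a + IgG Clu had the highest (2342 CPM per kb), ahead of Ly6a (585), Il1rn (503) and Msln (434). Clu was last in complete media and first in Wnt5a also per kilobase of annotated exon, at 14.8 and 1098 CPM per kb, but the order of the other genes differed between the 2 measures of length.

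Spp1 encodes osteopontin, a secreted phosphoprotein that binds CD44 and integrins. The gene (ENSMUSG00000029304) lies on the plus strand of chromosome 5, from 104435118 to 104441050. It had 127 counts in all, in 10 of 36 libraries, and did not pass the filter on low counts. Of these, 108 counts came from Wnt5a + IgG, where 5 of 6 libraries held between 8 and 50 counts and replicate 4 held none. QCM + IgG held 14 counts, from 2 libraries, SCM + IgG held 4 and complete media + IgG 1. No library with anti-Ptk7 held a count. Pooled over a condition, Wnt5a + IgG had 1.22 CPM. A count of 0 in Wnt5a + anti-Ptk7 allows up to 0.0371 CPM (3 counts over the 6 libraries). The pooled Wnt5a + IgG level was 33-fold this limit. Replicate 5 held 50 of the Wnt5a + IgG counts, and without it the ratio was 20.8-fold. The ratio allows for the counting error of the 0 only. It leaves out that of the Wnt5a + IgG counts and the spread between libraries, so it is not a lower bound. The Wnt5a libraries ranged from 0 to 3.85 CPM, and at its low level Spp1 entered no test while the filter on low counts was in place.

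Within a condition the detected genes followed the replicate number. Replicate 1 had the highest Clu and the highest Msln in 6 of 6 conditions, and the highest Il1rn and Ly6a in 5. Replicate 3 had the lowest Clu in 6 of 6 conditions and the lowest of each of the other genes in 5. Averaged over conditions, replicate 1 deviated from its condition mean by 1.06 for Clu, 1.27 for Msln, 0.98 for Il1rn and 0.79 for Ly6a on the log2 scale. Replicate 3 deviated by −0.86, −0.97, −0.85 and −0.54. Replicate 5 was above the condition mean in all conditions for Clu, Msln and Il1rn. Of the spread of Clu within conditions, 95.2% lay between replicate numbers, which ranked 4 among the 15497 genes tested. The share was 94.8% for Msln, 87.6% for Il1rn and 77.5% for Ly6a, beside a median of 20.8% over all genes. The series numbers its 6 mice from 1 to 6, so that a replicate number may stand for a mouse, but no label states this. If it does, the standard errors given here hold the spread between mice, and a difference that was not called may still hold within mice. Leaving replicate 1 out of every condition, an alternative added after the data were seen, changed no call of a member. Leaving out replicate 3 in the same way ended the call of Ly6a in Wnt5a against complete media, at 0.75.

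**Figure D4:**
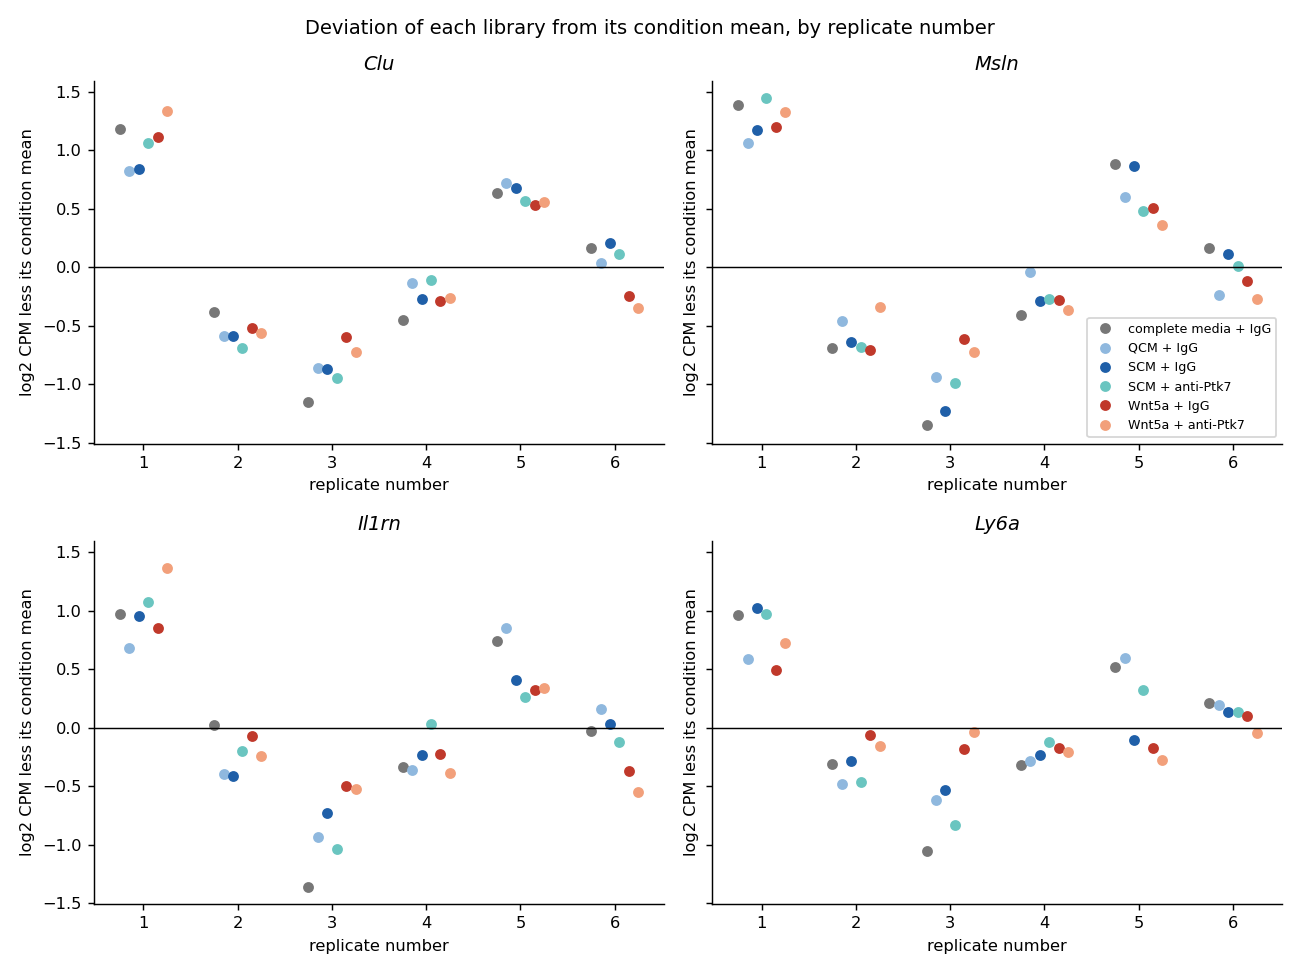
Deviation of log2 CPM from the mean of its condition (vertical axis) by replicate number (horizontal axis) for the 4 detected genes, 1 point per library coloured by condition. Replicate 1 lies above 0 and replicate 3 below 0 in every condition for each gene, and the points of a number lie closest together for Clu and Msln.

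Levels of the genes varied together within conditions. The correlation of deviations from the condition means over 36 libraries was 0.98 for Clu and Msln, 0.95 for Clu and Il1rn, 0.93 for Il1rn and Msln, and between 0.87 and 0.89 for Ly6a with the others. Within single conditions of 6 libraries the correlation of Clu with Msln was between 0.97 and 0.99, and that of Clu with Ly6a between 0.689 in Wnt5a + IgG and 0.997 in complete media + IgG. Over all 36 libraries without removing the condition means, the values were 0.85 for Clu and Msln, 0.87 for Clu and Il1rn, 0.93 for Il1rn and Msln, 0.30 for Clu and Ly6a, 0.51 for Il1rn and Ly6a, and 0.66 for Msln and Ly6a. These values describe libraries that share conditions and replicate numbers, and carry no test.

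The genes whose log2 CPM over 36 libraries was most like each member were found among all genes tested. For Clu they were Lama3, a laminin chain (r = 0.98), Cwh43 (0.98), F3, the initiator of coagulation (0.98), Anxa8 (0.97) and Vill (0.97). For Msln they were Plaur, the urokinase receptor (0.98), Anxa1 (0.98), Krt7, a simple-epithelial keratin (0.98), Gprc5a (0.97) and Anxa3 (0.97). For Il1rn they were Mboat1 (0.97), Anxa10 (0.97), S100a11 (0.97), Lgals3 (0.97) and Nbl1 (0.96). For Ly6a they were Serpinb9b (0.92), Gm36099 (0.92), Angptl4 (0.89), Tspan4 (0.86) and Lor, a protein of the cornified envelope (0.86). These lists depend on the measure, and by Spearman's rho 2 of the 5 genes were kept for Clu, 1 for Il1rn and 3 for Msln. By deviations from the condition means, the 3 nearest genes of Clu were Lgals3, which encodes galectin-3, Cwh43 and Msln. They were Lgals3, Capg and Cwh43 for Msln, S100a11, F3 and Anxa1 for Il1rn, and S100a6 and the closely related pair Prl2c3 and Prl2c2 for Ly6a, with r between 0.93 and 0.99.

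Other genes of the fetal and regeneration programme were counted from a list of 27, of which 26 were tested. In SCM against complete media 19 were called higher and none lower (6.08% of all genes were called), with a median log2 fold change of 1.44 beside 0.00679 over all genes. In Wnt5a 19 were called higher and none lower (10.2% of all genes), with a median of 1.82 beside 0.00506. Anxa8 (3.14 in SCM and 3.92 in Wnt5a) and the YAP target Ccn2 (2.27 and 3.21) were among those called. Basp1 was called from few counts, with a mean of 0.0522 CPM in complete media against 1.04 CPM for SCM + IgG and 3.31 CPM for Wnt5a + IgG, and passed the filter through the libraries where it is high, so that the size of its fold change is not fixed. Ly6e, Mfge8, Gsto1, Cxadr, Ereg and Fabp5 were called in neither medium. In QCM none was called, and the median was 0.46 beside 0.0232. SCM against QCM called 5, which were Anxa8, Ccn2, Emp1, Ccn1 and Anxa5, and Wnt5a against SCM called Ccn1.

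With anti-Ptk7 in SCM, 24 of these 26 genes had a log2 fold change below 0 and 4 were called lower, namely Basp1 (from few counts), Ccn2 (−2.50), Tnfrsf12a (−0.79) and Fabp5 (−0.74), with a median of −0.70 beside 0.00172 and 1.23% of all genes called. In Wnt5a 19 of 26 were below 0 and Ccn2 (−1.86) was called lower, with a median of −0.18 beside 0.00667 and 0.884% of all genes called. Ccn2 was the gene of the list that, as Ly6a, was called lower in both media.

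**Figure D5:**
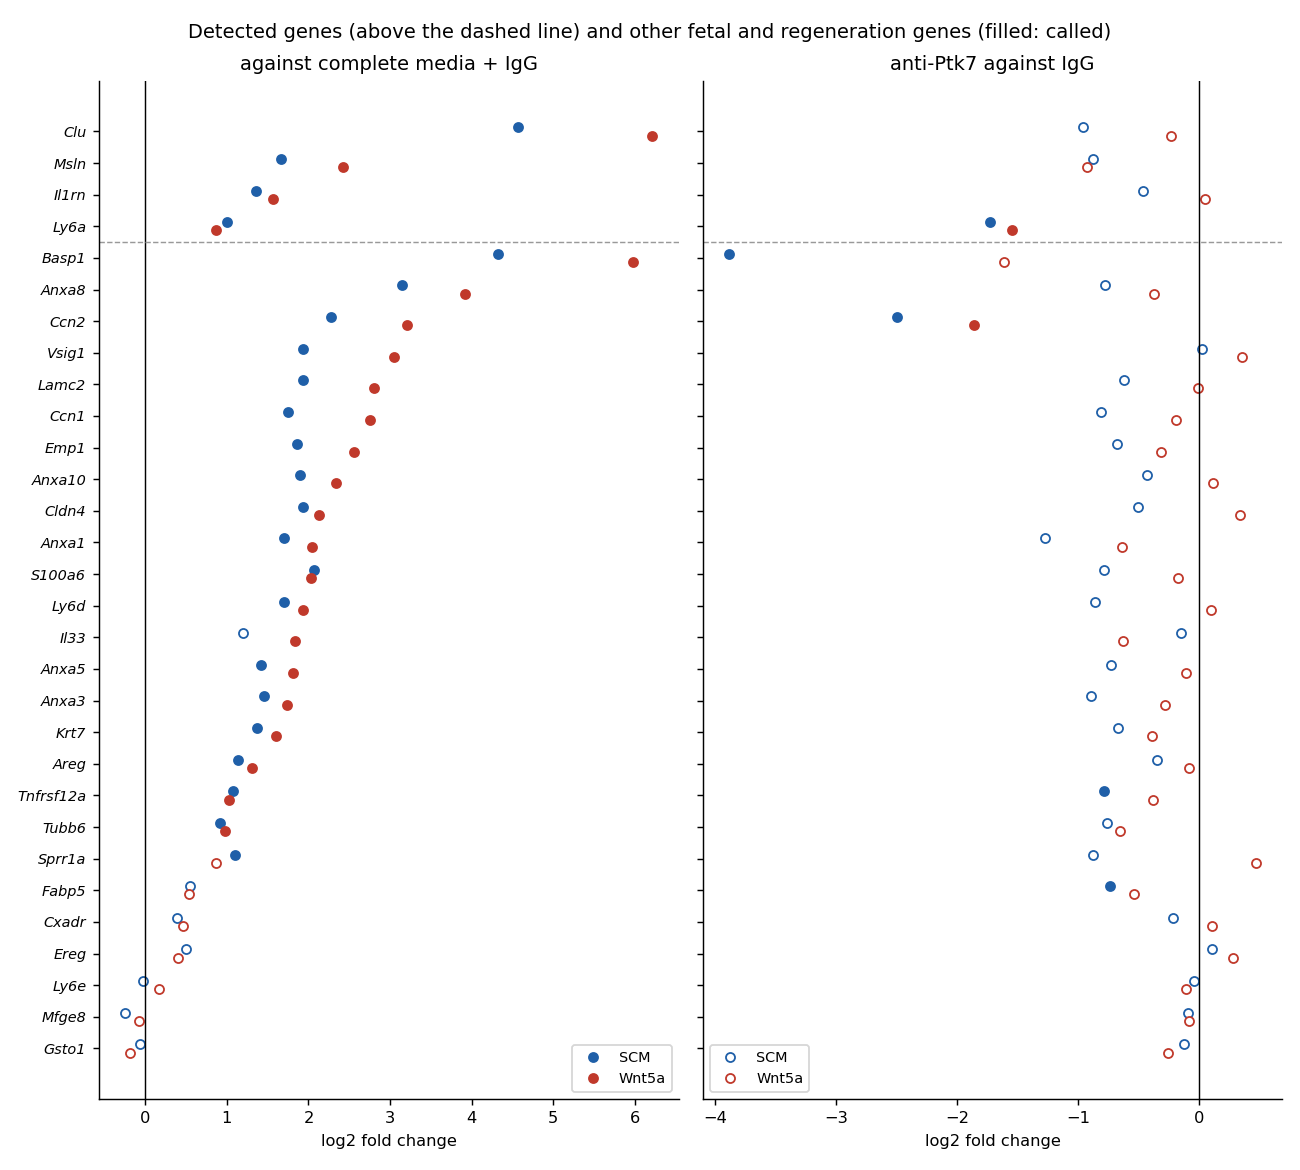
Log2 fold change of the 4 detected genes (above the dashed line) and of 26 other fetal and regeneration genes, in SCM (blue) and Wnt5a (red) against complete media on the left and with anti-Ptk7 against IgG in the same media on the right; filled points were called. On the left 19 of the 26 genes are called in each medium, and on the right 4 are called in SCM and 1 in Wnt5a.

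The genes that act with the members were counted in the same way, beside 6.08% of all genes called in SCM and 10.2% in Wnt5a and medians over all genes of 0.00679 and 0.00506. Of the interleukin-1 family, its receptors and linked genes (Myd88, Casp1 and Il18bp) 9 of 17 genes were tested. Of these, 2 were called higher in SCM and 3 in Wnt5a (medians 0.65 and 0.22). Il18 rose in SCM (1.34) and Wnt5a (1.32), and Il33, already counted in the fetal list, rose in Wnt5a (1.84, log2 fold changes). Il1a, which encodes the cytokine interleukin-1 alpha, was called in both from few counts, with means of 0.235 CPM in complete media, 1.36 CPM for SCM + IgG and 2.07 CPM for Wnt5a + IgG. It passed the filter through the libraries where it is high, so its calls, included in the 2 and 3, add no support. Il1b had a mean of at most 0.0369 CPM in any condition. Il1r1, the receptor that Il1rn blocks, had a mean of at most 0.195 CPM. None of the 9 was called with anti-Ptk7. Of the osteopontin receptors 7 of 10 were tested, of which 3 were called higher in SCM and 5 in Wnt5a (medians 0.85 and 1.34). Itgb6 (1.28 and 1.95), Itgb5 (1.47 and 1.67) and Cd44 (0.80 and 1.21) rose in SCM and in Wnt5a, and Itgav (1.13) and Itgb1 (0.67) rose in Wnt5a. Itgb5 was also called in QCM (1.13) and Cd44 in SCM against QCM (0.71), where 0.903% of all genes were called, and none was called with the antibody. No relative of Spp1 (Ibsp, Dmp1, Mepe and Dspp) passed the filter. The receptors Lrp8 and Vldlr, which can bind clusterin, and Mslnl, a relative of Msln, were tested and called in no comparison.

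In the Ly6 family 12 of 25 genes were tested, with medians of 1.06 in SCM and 1.03 in Wnt5a, and 5 and 6 were called, beside medians of 0.00679 and 0.00506 and shares of 6.08% and 10.2% over all genes. Psca, Lynx1, Ly6d, Ly6g6c and Lypd8 were called higher in SCM, and the same 5 genes and Ly6g6e in Wnt5a, with log2 fold changes between 0.79 and 2.24. Lypd8 was also called in QCM, at 0.80. Ly6d and Ly6e were already counted in the fetal list. With anti-Ptk7 Ly6c1 was the 1 gene of the family called, and it fell in both media (1.23% and 0.884% of all genes were called). Its libraries had 0.897 to 4.82 CPM in SCM + IgG and 0 to 0.645 CPM in SCM + anti-Ptk7, and 1.31 to 5.20 CPM in Wnt5a + IgG and 0 to 0.361 CPM in Wnt5a + anti-Ptk7. The log2 fold changes were −4.16 ± 0.64 (adjusted p = 0.000207) and −4.42 ± 0.66 (adjusted p = 0.000151, edgeR), fitted from few counts. Unlike Ly6a, it was not called in SCM (0.06 ± 0.50) or Wnt5a (0.02 ± 0.50) against complete media. Reads of 50 bases can be common to both genes. Of 1297 windows of that length in Ly6a transcripts, 246 (19%) also occur in transcripts of other genes, 195 of them in Ly6c1, and how such reads were counted is not given in the sources used here. The share was 0% for Clu, 0.144% for Il1rn and 2.88% for Msln. For Spp1 it was 11.6%, with windows shared with Gm42793, an overlapping gene that held no count.

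Of 7 crypt-base genes, Smoc2 fell in SCM (−0.77) and in Wnt5a (−0.67), and Lgr5, Olfm4, Ascl2, Axin2, Hmgb2 and Lrig1 were called in neither. With 1 of 7 called, beside 6.08% and 10.2% of all genes, nothing is read from this about the list. The summed level of these 7 genes ranged from 1879 to 2499 CPM in complete media and from 1081 to 2235 CPM in Wnt5a + IgG. Among the 7 epithelial markers 3 rose in SCM (Krt20, Krt8 and Krt18) and 4 in Wnt5a (these and Cdh1, at 0.68), beside the same shares of all genes, and Krt20, a keratin of differentiated villus cells, had log2 fold changes of 1.84 and 2.26. Of the mesothelial markers, Upk1b, a uroplakin also found in other epithelia, had 2.92 ± 0.801 CPM in complete media and rose to 9.45 ± 4.39 in SCM and 13.2 ± 5.31 in Wnt5a (SD, n = 6). Upk3b, a mesothelial uroplakin, was called lower with anti-Ptk7 in SCM, where its libraries had 0 to 0.0666 CPM against 0 to 4.2 CPM with IgG, a call that rests on few counts in some IgG libraries. Lrrn4 did not pass the filter, and its mean was highest in Wnt5a + IgG, at 0.502 CPM.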

How the data were processed

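Bulk RNA sequencing of 36 organoid libraries was used. The authors isolated RNA, made cDNA with the Smart-Seq V4 Ultra Low Input kit and libraries with Nextera XT (a kit that does not mark the strand), aligned single-end reads to NCBI Build 38 (mm10) with GSNAP through HTSeqGenie, counted those in coding sequences per the study's methods, and deposited raw counts of reads per gene, not normalized. The per-library files were identical to the table of the whole series in all 36 cases.

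Genes were named and placed with GENCODE vM21. Counts were scaled by TMM, filtered with filterByExpr (minimum count 10, which left 15497 genes) and tested in 1 quasi-likelihood model of 6 condition means (edgeR 4.0.16, R 4.3.3). Log2 CPM used a prior count of 2. Tested on simulated data for SCM against complete media in which 200 of 15269 genes were changed 4-fold, the fit called 172 of them and 8 others. The members, the gene lists (132 of 133 symbols matched), the comparisons and the alternatives were chosen with earlier results of these data known, and no list was tested as a set. A gene of the fetal list is not reported here. The named genes are the members, genes of the lists, and for each detected member the 5 genes nearest by r over 36 libraries and the 3 nearest by deviations. Neighbouring conditions were compared by exact permutation (Python, scipy 1.17.1). Alternatives were voom with limma 3.58.1, DESeq2 1.42.0, other scalings and filters, glmTreat, only the groups compared, a replicate block, each library left out, and a replicate number left out of every condition. P values measure the spread between these libraries, which may be partly technical, and intervals of counts cover counting error only.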

Additional observations from a re-analysis of the deposited data

Results flagged for a closer look

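Ly6a in Wnt5a + anti-Ptk7 had 1 library far above the others. Replicate 1 stood at 129 CPM and the other 5 libraries between 64.8 and 76.4 CPM, so that its gap to the nearest library was 0.76 of the whole range of log2 CPM, above the 95% critical value of Dixon's test for 6 samples. Of 24 combinations of gene and condition examined it was the 1 past this value, where chance alone gives about 1 in 20. Without this library the fall of Ly6a with anti-Ptk7 in Wnt5a was −1.73 on the log2 scale and still called, and replicate 1 had the highest Ly6a in 5 of 6 conditions.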

How the results depend on the processing

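Replicate numbers run from 1 to 6 in each condition. Between conditions, the deviations from the condition means over all genes correlated at 0.092 on average for libraries sharing a number and at −0.018 for those that did not. Of 90 pairs sharing a number 34 were over 0.1, and 16 of 36 libraries lay nearest to their own number. Libraries sharing a number were thus somewhat more alike. No label states a pairing, so the main fit left the numbers out, and a replicate block was fitted as an alternative. The main fit can therefore miss differences that hold within numbers. In a fit with a replicate block, the genes called in all went from 58 to 178 in QCM, from 140 to 496 in SCM against QCM, from 107 to 259 in Wnt5a against SCM, and from 190 to 399 and from 137 to 255 with anti-Ptk7 in SCM and Wnt5a, and from 0 to 3 for the difference of the antibody effects. Of the members, the block then also called Msln in QCM (0.69), Il1rn, Msln and Ly6a in SCM against QCM (1.02, 1.03 and 0.82), Msln in Wnt5a against SCM (0.82), Clu and Msln with anti-Ptk7 in SCM (−0.99 and −0.89), Msln with anti-Ptk7 in Wnt5a (−0.94) and the difference of the antibody effects for Clu (0.70). The members called with the block numbered 2 in QCM, 4 in SCM against QCM, 2 in Wnt5a against SCM, 3 and 2 with anti-Ptk7 in SCM and Wnt5a, and 1 for that difference. With replicate means removed, where the permutation is not exact, 5 neighbouring pairs of conditions differed for Clu, 2 for Ly6a, 2 for Il1rn and 3 for Msln. With upper-quartile scaling it was 0 for Ly6a.

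Against a fold change of 1.5 (glmTreat), calls were lost for Clu in QCM (1.91) and in Wnt5a against SCM (1.64), for Il1rn, Msln and Ly6a in SCM (1.35, 1.67 and 1.00) and for Ly6a in Wnt5a (0.87) and with anti-Ptk7 in Wnt5a (−1.55). It called 0 members in QCM, 1 in SCM, 0 in Wnt5a against SCM and 0 with anti-Ptk7 in Wnt5a. By construction this test asks for more than a change. The share of all genes it called was not counted, so these numbers say nothing particular about the members. Under voom with TMM Clu in QCM (1.99) was not called, which left 0 members there, and the cause was not tested. Without the filter on low counts Spp1 was also called, which made 2 members with anti-Ptk7 in Wnt5a and 5 in Wnt5a against complete media. Those fits set it against libraries with no count or 1 count and support nothing.

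Leaving out 1 library at a time, the log2 fold change of Clu in QCM was between 1.72 and 2.20, that of Clu in Wnt5a against SCM between 1.34 and 1.85, and those in SCM between 1.10 and 1.59 for Il1rn, 1.37 and 2.05 for Msln and 0.71 and 1.24 for Ly6a. For Ly6a it was between 0.71 and 1.12 in Wnt5a, −0.014 and 0.37 in QCM and −0.24 and 0.17 in Wnt5a against SCM. With anti-Ptk7 in Wnt5a it was between −0.63 and 0.071 for Clu and −0.37 and 0.27 for Il1rn. The difference of the antibody effects was between −0.45 and 0.39 for Msln and −0.11 and 0.44 for Ly6a. Members called were between 0 and 1 in QCM, 1 and 4 in SCM, and 0 and 1 in Wnt5a against SCM. Fewer libraries enter these fits, and the shares of all genes they called were not counted.

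Values near 0 that were not called turned in sign. Il1rn with anti-Ptk7 in Wnt5a was −0.045 by voom with quantile normalization, −0.057 by voom with TMM, −0.044 with the replicate block and −0.15 with replicate number 1 left out of every condition, which was added after seeing the data. Ly6a in Wnt5a against SCM was 0.034 without replicate number 1. The difference of the antibody effects for Msln was 0.055 without replicate number 1 and 0.0023 without replicate number 3, and without the latter Ly6a in Wnt5a (0.75) was not called. Of 1044 values under an alternative, 941 kept direction and side of the threshold or, for counts, stayed close, among them all those under DESeq2, library size alone, a minimum of 10 counts in every library and fits of only the groups compared. For Spp1, depth limits what can be said, since most libraries held few or no counts of it. With a library left out, its pooled Wnt5a + IgG level was between 20.8-fold and 40.4-fold the limit for Wnt5a + anti-Ptk7. This alternative was added after seeing the data.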
